A study of Rattus norvegicus with 10 samples.

Results

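The genes described here serve protein folding in the endoplasmic reticulum (ER) and the unfolded protein response, and they were measured in rat liver. They were 34 genes of the 32883 in the expression tables, chosen by symbol and with earlier results of these data known. All 34 were found. Poly(A) RNA was sequenced in 10 libraries, 5 from livers of male Eisai hyperbilirubinemic rats (EHBR) and 5 from livers of male Sprague-Dawley rats (SD rats), all 5 weeks old and numbered 1 to 5 within each strain. EHBR is a mutant line derived from Sprague-Dawley rats that lacks Mrp2, the canalicular efflux pump encoded by Abcc2, and is used as a model of conjugated hyperbilirubinemia. Loss of Mrp2 and any other difference between the strains cannot be told apart in these samples.

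Hepatocytes fold large amounts of secreted protein, such as albumin and transferrin, in the ER. Chaperones, co-chaperones and protein disulfide isomerases do that work in the ER lumen, and proteins that fail to fold are sent back to the cytosol and destroyed, a route called ER-associated degradation. When unfolded protein builds up, the sensors IRE1 (Ern1), PERK (Eif2ak3) and ATF6 (Atf6) signal to the nucleus. IRE1 splices the Xbp1 message, ATF6 is cut to release a transcription factor, and PERK slows translation while favouring that of Atf4, the factor behind the integrated stress response.

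Levels are given in TPM, which corrects for gene length and brings every library to 1 common total. Differences are of log2(TPM + 1), EHBR minus SD, with their standard error (SE) from limma. Where a gene has few TPM, the added 1 makes such a difference smaller than the true one. The test was two-sided, and a gene was tested if 5 or more of the 10 libraries held 1 TPM or more of it. Of all genes 11083 met this, the 34 among them. A gene is called where its p, adjusted over the 11083 by Benjamini and Hochberg, was under 0.05. The libraries held 13.8 to 19.6 M reads assigned to genes. Abcc2 measured 17.2, 17.6, 12.3, 11.9 and 10.1 TPM in EHBR livers 1 to 5, against 199, 224, 271, 60 and 66.4 TPM in SD livers 1 to 5. In both strains livers 4 and 5 differed as a set from livers 1 to 3, a division seen in the data and of unknown origin. Each strain difference was therefore also tested among numbers 1 to 3 and among numbers 4 and 5, in 1 fit of 4 groups with a shared estimate of the spread. The median gene of all 11083 differed by 0.15 between strains, by 0.07 among numbers 1 to 3 and by 0.27 among numbers 4 and 5. Centring each library on its median moved the first of these to -0.02, so a difference near 0.15 lies near the middle of all genes.

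Over all livers, 3 of the 34 genes, each a luminal folding gene, were lower in EHBR livers and 0 were higher. They were Dnajc3, Sdf2l1 and Pdia5, a share of 8.82% of the genes, against 1.63% of all tested genes called lower. Of all tested genes, 3.82% were called higher. Without adjustment, 11 of the 34 genes (32.4%) had a p under 0.05, against 20.9% of all tested genes. That fit has no term for the division into numbers 1 to 3 and 4 and 5. With one, 3 genes were higher (Atf6, Edem1 and Herpud1) and 7 lower, among them the degradation gene Derl3. These were 8.82% and 20.6% of the 34, against 13.6% and 3.36% of all tested genes. The division was seen in these same data, so p-values from fits that use it may be too small. The median of the 34 genes was -0.04, against 0.15 for all tested genes, and with each library centred on its median it was -0.21, against -0.02. Every EHBR liver lay below every SD liver in 2 of the genes, Dnajc3 and Pdia5, as in 2.02% of all tested genes. None of the 34 genes had every EHBR liver above every SD liver, as 6.45% of all tested genes did.

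**Figure D1:**
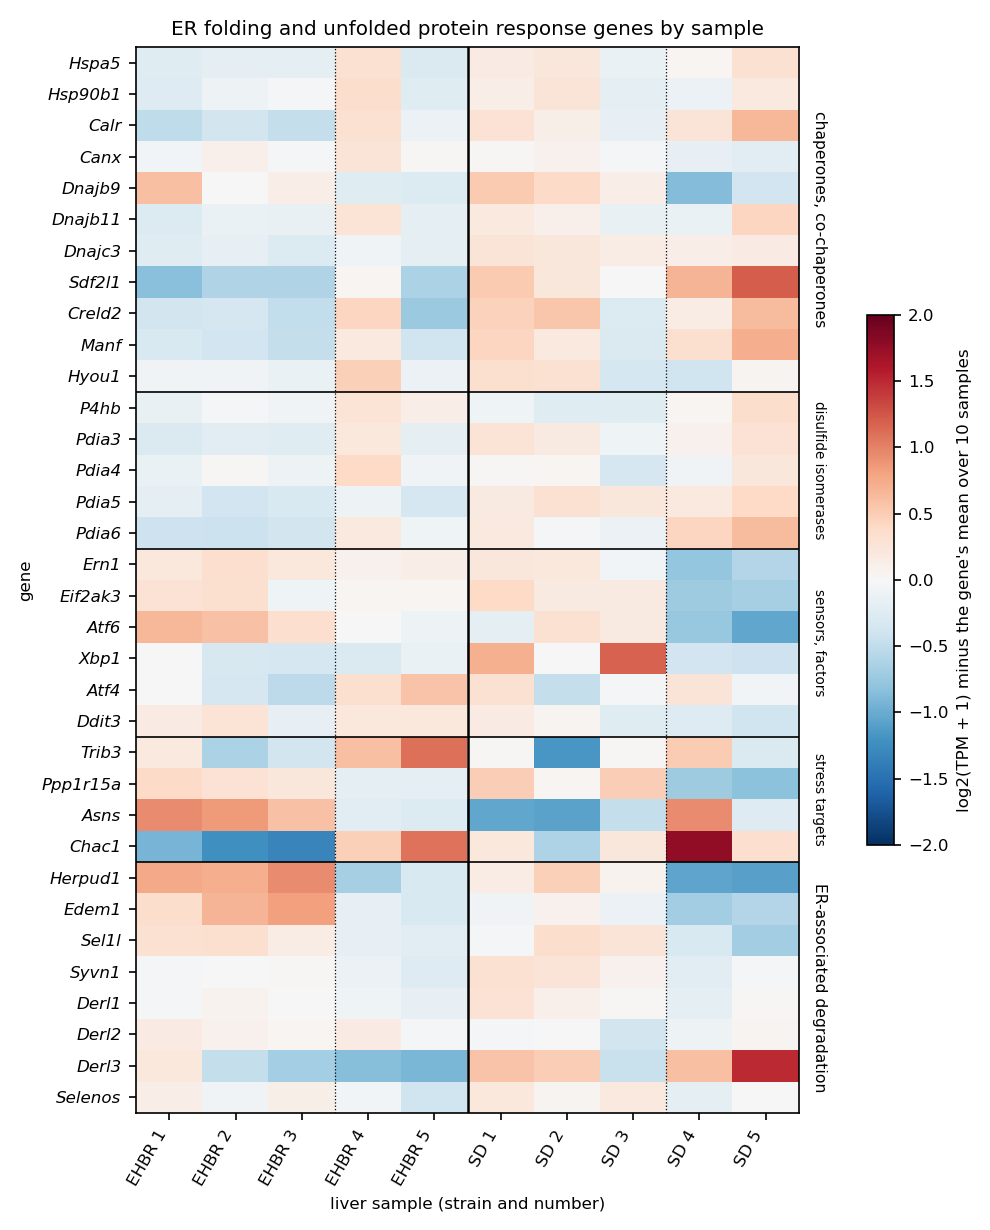
Level of each gene in every liver, as log2(TPM + 1) minus the mean of that gene over the 10 livers, with EHBR livers on the left and SD livers on the right and the numbers 1 to 3 and 4 and 5 parted by dotted lines. Dnajc3, Sdf2l1 and Pdia5 are blue or pale across the EHBR livers, EHBR 4 is redder than the other EHBR livers in most chaperone and disulfide isomerase genes, and Herpud1 and Edem1 are redder at numbers 1 to 3 than at numbers 4 and 5 in both strains.

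Dnajc3 encodes a co-chaperone of the Hsp70 protein BiP in the ER lumen and is also known as an inhibitor of PERK. In the build rn6 it lies on the plus strand at chr15:104186792-104226329. It measured 127, 134, 123, 143 and 130 TPM in EHBR livers 1 to 5, against 179, 175, 166, 165 and 168 TPM in SD livers 1 to 5. The strains did not overlap, and the highest EHBR liver was EHBR 4. The means were 131 ± 7.55 TPM in EHBR livers and 171 ± 6.26 TPM in SD livers (standard deviation, n = 5 each), a ratio of 0.769. The log2 difference was -0.38 (SE 0.07, adjusted p = 0.012, limma). It was -0.44 among numbers 1 to 3 (adjusted p = 0.00725) and -0.29 among numbers 4 and 5 (adjusted p = 0.0434), both below the threshold. The difference over all livers kept its call when any of the 10 livers was left out, with adjusted p from 0.016 to 0.0428. The call among numbers 4 and 5 was lost without any 1 of 8 livers (all but SD 1 and SD 3), with adjusted p up to 0.167 without EHBR 5.

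Sdf2l1 encodes a luminal protein that works with BiP and its co-chaperone ERdj3 and is induced by ER stress. It lies on the plus strand at chr11:88122271-88124513 in rn6. EHBR livers 1 to 5 held 34.8, 41.1, 41.2, 64.8 and 40.5 TPM, against 91.5, 73.8, 62.8, 102 and 148 TPM in SD livers 1 to 5. EHBR 4 lay just above SD 3, the lowest SD liver, and the other 4 EHBR livers lay below all SD livers. The means were 44.5 ± 11.7 TPM in EHBR livers and 95.7 ± 33.2 TPM in SD livers, a ratio of 0.465. The log2 difference was -1.06 (SE 0.22, adjusted p = 0.0174, limma), the greatest fall among the called genes of the group. It was -0.93 among numbers 1 to 3 (adjusted p = 0.0277) and -1.25 among numbers 4 and 5 (adjusted p = 0.012), and the strains did not overlap within either set. Without EHBR 1 the difference over all livers was -0.98 and missed the threshold, with an adjusted p of 0.0504. Among numbers 1 to 3 the call was lost without EHBR 1, 2 or 3 or SD 1 or 2 (adjusted p up to 0.102), and among numbers 4 and 5 without EHBR 5 or SD 5 (up to 0.0745).

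BiP itself, encoded by Hspa5 and the central Hsp70 chaperone of the ER, did not pass the test. It measured 369, 380, 385, 536 and 355 TPM in EHBR livers, against 486, 510, 396, 446 and 538 TPM in SD livers. EHBR 4 lay just under SD 5, the highest SD liver, and the other 4 EHBR livers were below all SD livers. The means were 405 ± 74.5 TPM in EHBR livers and 475 ± 55.5 TPM in SD livers, and the log2 difference between them was -0.24 (SE 0.13, adjusted p = 0.307, limma). Hsp90b1, the ER Hsp90 known as GRP94, measured 189, 212, 222, 289 and 192 TPM in EHBR livers and 249, 272, 197, 208 and 260 TPM in SD livers. Its ranges overlapped, with EHBR 4 the highest of all 10, and the difference was -0.11 (SE 0.14, adjusted p = 0.66).

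Calreticulin (Calr) and calnexin (Canx) are the lectin chaperones that hold newly made glycoproteins, the first soluble in the lumen and the second in the membrane. Calr was among the most abundant genes of the group, at 688 to 1202 TPM in EHBR livers and 873 to 1551 TPM in SD livers, and its difference of -0.47 (SE 0.18) did not pass (adjusted p = 0.169). Canx measured 127, 141, 128, 157 and 134 TPM in EHBR livers, against 133, 139, 130, 117 and 114 TPM in SD livers. The strains overlapped at numbers 1 to 3, where the difference was -0.02 (adjusted p = 0.908), and were apart at numbers 4 and 5. Canx was called higher in EHBR among numbers 4 and 5, where limma gave 0.33 (SE 0.10, adjusted p = 0.0425). That call was lost with each library centred on its median (0.02, adjusted p = 0.925), and without any 1 of 8 livers (all but EHBR 5 and SD 1), with adjusted p up to 0.22 without EHBR 4.

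The other chaperones and co-chaperones did not pass the test in any of the 4 comparisons. Manf, a luminal protein that is also secreted, measured 196 to 313 TPM in EHBR livers and 224 to 456 TPM in SD livers, with a difference of -0.55 (SE 0.18, adjusted p = 0.115). Creld2, a luminal protein induced by ER stress, measured 25.1 to 57.8 TPM in EHBR livers and 35.2 to 66.7 TPM in SD livers, with a difference of -0.61 (SE 0.23, adjusted p = 0.153). Both moved past the threshold when 1 liver was left out: Creld2 without EHBR 4 (-0.79, adjusted p = 0.0407) and Manf without SD 3 (-0.69, adjusted p = 0.0277). Dnajb11, the co-chaperone ERdj3, and Hyou1, a nucleotide exchange factor of BiP, gave -0.18 and 0.03, and Dnajb9, the co-chaperone ERdj4, gave 0.09. Their adjusted p-values were 0.467 to 0.933.

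**Figure D2:**
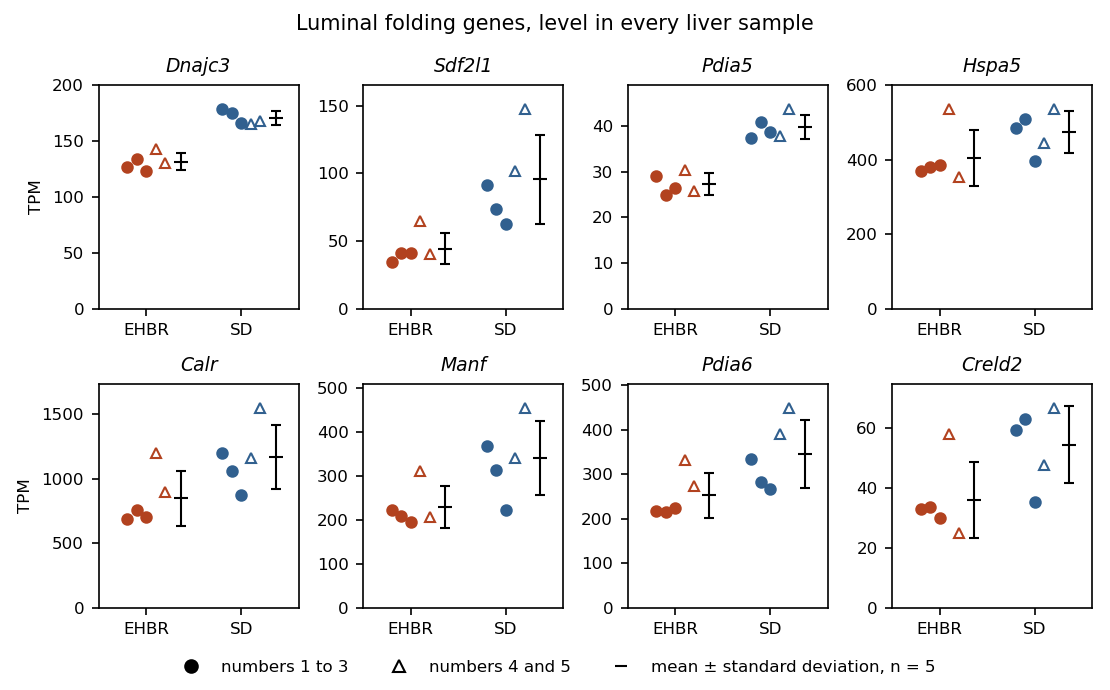
TPM of 8 luminal folding genes in each liver, EHBR on the left and SD on the right, with filled circles for numbers 1 to 3, open triangles for numbers 4 and 5, and the mean with its standard deviation (n = 5) beside the points. The strains are apart in Dnajc3 and Pdia5, overlap in Sdf2l1 only through EHBR 4 at 64.8 TPM and SD 3 at 62.8 TPM, and overlap in the other 5 genes.

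The next 5 genes encode protein disulfide isomerases, which form and shuffle disulfide bonds in the lumen. Pdia5, a member of that family linked to the activation of ATF6, fell in EHBR livers. It lies on the plus strand at chr11:68493035-68578995 in rn6. EHBR livers 1 to 5 held 29.1, 24.9, 26.4, 30.5 and 25.9 TPM, against 37.4, 40.9, 38.8, 37.9 and 43.9 TPM in SD livers 1 to 5. The strains did not overlap. The means were 27.4 ± 2.33 TPM in EHBR livers and 39.8 ± 2.68 TPM in SD livers, a ratio of 0.688, and the log2 difference was -0.53 (SE 0.09, adjusted p = 0.00654, limma). It was -0.53 among numbers 1 to 3 (adjusted p = 0.0151) and -0.52 among numbers 4 and 5 (adjusted p = 0.0199). Over all livers the call held without each liver in turn, with adjusted p from 0.00913 to 0.0258. Among numbers 1 to 3 it was lost without EHBR 2 or EHBR 3 (adjusted p up to 0.0714), and among numbers 4 and 5 without EHBR 5 or SD 5 (up to 0.11).

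Pdia6, which also binds the sensor IRE1, measured 218, 215, 224, 331 and 274 TPM in EHBR livers, against 333, 282, 266, 391 and 449 TPM in SD livers. The strains overlapped over all livers and were apart within each set of numbers, and numbers 4 and 5 were higher than numbers 1 to 3 in both strains. The difference over all livers was -0.44 (SE 0.17, adjusted p = 0.164, limma). It was called lower among numbers 1 to 3 (-0.42, adjusted p = 0.0475) and among numbers 4 and 5 (-0.47, adjusted p = 0.0315). Among numbers 1 to 3 that call was lost without any 1 of 8 livers (all but EHBR 4 and EHBR 5, adjusted p up to 0.146), and among numbers 4 and 5 without EHBR 4, EHBR 5 or SD 5 (up to 0.159). Pdia3, which serves glycoproteins held by calreticulin and calnexin, measured 370 to 525 TPM in EHBR livers and 426 to 550 TPM in SD livers (-0.30, adjusted p = 0.176). P4hb, the archetypal disulfide isomerase and a subunit of prolyl hydroxylase, gave 785 to 1045 TPM in EHBR livers and 730 to 1110 TPM in SD livers, and Pdia4 193 to 280 TPM in EHBR livers and 168 to 248 TPM in SD livers. The differences of P4hb and Pdia4 were 0.06 and 0.04, and both turned negative with each library centred on its median (-0.11 and -0.12).

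Among the 16 folding genes, EHBR 4 was the highest EHBR liver in 15, and Dnajb9, highest in EHBR 1, was the exception. The median ratio of EHBR 4 to the mean of the other EHBR livers was 1.4, with a range from 0.754 for Dnajb9 to 1.9 for Creld2. The 11 chaperones summed to 1913, 2026, 1947, 2911 and 2092 TPM in EHBR livers, against 2920, 2755, 2195, 2688 and 3441 TPM in SD livers. Among the SD livers, SD 5 was the highest in 11 of the 16 genes and SD 3 the lowest in 11. EHBR 4 also had the highest sum over 8 Kupffer cell and macrophage markers, 488 TPM, against 264 to 386 TPM in the other EHBR livers and 245 to 297 TPM in SD livers; all 8 passed the filter and 0 were called between strains (limma; 2 had an unadjusted p under 0.05). It had the lowest sum over 7 B and plasma cell markers, 1.65 TPM, against 5.34 to 8.57 TPM in the other EHBR livers and 5.46 to 9.26 TPM in SD livers. The part of these cells in the folding genes was not tested. In bulk liver, fewer cells of a type and less RNA per cell cannot be told apart. Leaving out EHBR 4 gave 4 calls among the 34 genes over all livers: Creld2, Dnajc3, Pdia5 and Sdf2l1, all lower. Leaving out SD 3 gave 5, all lower: Derl3, Dnajc3, Manf, Pdia5 and Sdf2l1. Of all 11083 tested genes, 283 were called higher and 152 lower without EHBR 4, and 429 and 175 without SD 3. With all livers these were 423 and 181.

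The scaling moved the direction of some folding genes. With TPM as deposited, 11 of the 16 differences were negative. Canx, Dnajb9, Hyou1, P4hb and Pdia4 were the 5 positive ones, and all 16 were negative with each library centred on its median. Of all 34 genes, 17 were positive with TPM and 10 with that centring. Of all 11083 tested genes, 8102 were positive with TPM, and their median with that centring was -0.02. Over all tested genes, the share of calls that were higher in EHBR was 70% with TPM and 57.5% with FPKM. It was 44.8% when FPKM was scaled to the upper quartile, 52% when libraries were made equal by quantiles and 42% with the median centred. Dnajc3, Sdf2l1 and Pdia5 were called lower under each of these scalings.

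The promoters of many of these genes are known in human and mouse cells to carry the ER stress response element (ERSE), through which ATF6 and XBP1 act, and they are shown here because the 3 genes that fell differ in it. Promoters from RefSeq, in the build GRCr8, covered 250 bases before to 50 bases after the start of transcription and were found for 28 of the 34 genes. Derl1, Manf, Atf6, Ern1, Pdia3 and Pdia6 were those with none. Searched on both strands, the ERSE, which is CCAAT and CCACG with any 9 bases between them, stood in 8 of the 28 promoters, against 0.0657% of 33469 promoters of the same length. A related element, ERSE-II, which is ATTGG and CCACG with any 1 base between them, stood in 3 of the 28, against 0.0508%. Both end in CCACG, and no promoter of the group held both. The 5 letters CCACG alone stood in 24 of the 28, against 31.6% of all promoters. Only exact matches were counted, so a copy that differs in any fixed letter is neither counted nor marked. A match describes these letters and is no measure of binding.

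The whole promoters of Hspa5 (chr3:38452766-38453065, plus strand) and of Dnajc3 (chr15:102432417-102432716, plus strand) are given first, the one as the best known ERSE gene and the other as a called gene. Capitals mark the ERSE, which begins 43 bases before the start in Hspa5 and 133 bases before it in Dnajc3.
Hspa5: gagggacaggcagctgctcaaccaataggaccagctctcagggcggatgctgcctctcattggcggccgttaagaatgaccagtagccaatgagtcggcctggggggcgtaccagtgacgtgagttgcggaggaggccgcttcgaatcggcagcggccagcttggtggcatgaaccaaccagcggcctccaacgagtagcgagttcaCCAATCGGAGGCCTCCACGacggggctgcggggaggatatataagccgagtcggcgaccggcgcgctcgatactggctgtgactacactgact
Dnajc3: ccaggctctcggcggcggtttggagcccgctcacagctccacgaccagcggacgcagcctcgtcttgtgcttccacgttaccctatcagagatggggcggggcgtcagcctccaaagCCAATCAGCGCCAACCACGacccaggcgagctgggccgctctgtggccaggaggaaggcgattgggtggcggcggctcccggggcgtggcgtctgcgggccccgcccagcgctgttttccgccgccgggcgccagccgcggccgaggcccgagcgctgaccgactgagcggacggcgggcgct

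Sdf2l1 and Pdia5, the other 2 called genes, held no exact match to the ERSE or to ERSE-II in this window. Their promoters, Sdf2l1 at chr11:97376628-97376927 and Pdia5 at chr11:78777258-78777557, both on the plus strand, held CCACG at 1 place and 2 places, all in the reverse orientation, CGTGG, shown in capitals.
Sdf2l1: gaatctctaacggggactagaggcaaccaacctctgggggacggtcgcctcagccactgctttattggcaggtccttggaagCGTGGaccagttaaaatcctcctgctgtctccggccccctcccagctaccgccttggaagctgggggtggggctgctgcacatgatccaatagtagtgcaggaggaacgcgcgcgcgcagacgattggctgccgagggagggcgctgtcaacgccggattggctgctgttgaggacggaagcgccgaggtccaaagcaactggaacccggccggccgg
Pdia5: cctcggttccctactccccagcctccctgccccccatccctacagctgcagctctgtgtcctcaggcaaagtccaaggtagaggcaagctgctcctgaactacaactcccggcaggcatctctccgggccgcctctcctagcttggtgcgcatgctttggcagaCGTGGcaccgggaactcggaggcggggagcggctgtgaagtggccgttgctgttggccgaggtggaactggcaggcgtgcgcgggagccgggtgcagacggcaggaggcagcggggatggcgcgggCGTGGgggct

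The other 6 genes with an ERSE are shown with 12 bases on either side of the motif, in gene orientation, so that the shared letters and their 2 orientations can be compared. Capitals mark the ERSE, and Hsp90b1 held it at 2 places, in opposite orientations. Their positions are chr19:40213123-40213165 (plus strand) for Calr, chr10:35158057-35158099 (minus) for Canx, chr7:121789227-121789269 (plus) for Creld2, chr20:12766589-12766631 (minus) for Derl3, chr7:23012335-23012481 (minus) for Hsp90b1 and chr14:84604546-84604588 (plus) for Xbp1.
Calr: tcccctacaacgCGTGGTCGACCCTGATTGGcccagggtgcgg
Canx: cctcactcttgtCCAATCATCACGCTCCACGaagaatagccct
Creld2: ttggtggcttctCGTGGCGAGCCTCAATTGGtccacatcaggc
Derl3: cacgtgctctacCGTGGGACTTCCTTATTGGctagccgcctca
Hsp90b1: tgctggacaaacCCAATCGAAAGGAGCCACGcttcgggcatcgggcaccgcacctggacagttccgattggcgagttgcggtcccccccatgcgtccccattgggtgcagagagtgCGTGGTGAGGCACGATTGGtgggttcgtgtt
Xbp1: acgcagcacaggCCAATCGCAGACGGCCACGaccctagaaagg

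The differences of the 8 genes with an ERSE over all livers were -1.08 for Derl3, -0.61 for Creld2, -0.47 for Calr, -0.44 for Xbp1, -0.38 for Dnajc3, -0.24 for Hspa5, -0.11 for Hsp90b1 and 0.12 for Canx, and of these that of Dnajc3 passed the test. With each library centred on its median all 8 were negative, from -1.25 for Derl3 to -0.05 for Canx, and again Dnajc3 alone passed (adjusted p = 0.0281). So were all 16 folding genes with that centring, and 10 of the 34 genes were positive, so the negative sign was not particular to the genes with an ERSE. The 3 genes with ERSE-II, Dnajb11, Hyou1 and Herpud1, gave -0.18, 0.03 and 0.58, with none passing over all livers. Herpud1, which encodes a membrane protein of the degradation machinery, held ERSE-II and also the element through which ATF4 acts, TGATG and AA with any 1 base between them, here reversed and farther upstream. That element, found in 3.98% of all promoters, stood in Chac1, Herpud1 and Trib3 among the 28. The sites are shown with 12 bases on either side, at chr11:91672788-91672822 (minus) for Dnajb11, chr8:53602682-53602816 (plus) for Hyou1, chr19:10614809-10614903 (minus) for Herpud1, chr3:126795952-126795983 (plus) for Chac1 and chr3:161275535-161275566 (minus) for Trib3. Capitals mark ERSE-II in Dnajb11 and Hyou1, both elements in Herpud1, and the ATF4 element in Chac1 and Trib3.
Dnajb11: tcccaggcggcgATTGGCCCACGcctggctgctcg
Hyou1: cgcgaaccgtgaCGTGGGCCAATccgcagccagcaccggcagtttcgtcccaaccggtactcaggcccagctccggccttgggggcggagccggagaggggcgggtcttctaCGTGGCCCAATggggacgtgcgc
Herpud1: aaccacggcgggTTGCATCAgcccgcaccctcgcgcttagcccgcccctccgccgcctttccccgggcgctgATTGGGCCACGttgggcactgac
Chac1: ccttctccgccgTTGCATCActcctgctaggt
Trib3: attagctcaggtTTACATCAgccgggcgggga

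None of the 6 sensors and transcription factors passed the test over all livers (limma; 1 had an unadjusted p under 0.05), and 3 of them, all sensors, were called higher in EHBR among numbers 4 and 5, as were 19.6% of all tested genes. Atf6 measured 19.6, 18.6, 15.4, 12.1 and 11.1 TPM in EHBR livers, against 10.3, 15.1, 13.8, 6.7 and 5.35 TPM in SD livers. Within each set of numbers every EHBR liver lay above every SD liver, and over all livers the strains overlapped. The log2 difference was 0.60 over all livers (SE 0.27, adjusted p = 0.23), 0.43 among numbers 1 to 3 (adjusted p = 0.137) and 0.85 among numbers 4 and 5 (SE 0.19, adjusted p = 0.0162, limma). Ern1 measured 8.51, 9.41, 8.55, 7.72 and 7.98 TPM in EHBR livers, against 8.63, 8.46, 6.86, 3.8 and 4.45 TPM in SD livers. SD 4 and SD 5 stood below the other 8 livers. Its difference was 0.40 over all livers (SE 0.20, adjusted p = 0.282), 0.13 among numbers 1 to 3 (adjusted p = 0.569) and 0.79 among numbers 4 and 5 (SE 0.14, adjusted p = 0.00884).

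Eif2ak3 measured 4.69, 4.82, 3.37, 3.76 and 3.77 TPM in EHBR livers, against 5.12, 4.26, 4.25, 1.84 and 1.92 TPM in SD livers. As with Ern1, SD 4 and SD 5 were the lowest of the 10. Its difference was 0.25 over all livers (SE 0.23, adjusted p = 0.552), -0.07 among numbers 1 to 3 (adjusted p = 0.811) and 0.73 among numbers 4 and 5 (SE 0.17, adjusted p = 0.0201). The differences between the 2 sets of numbers were 0.66 for Ern1, 0.80 for Eif2ak3 and 0.42 for Atf6, and none of these passed (adjusted p = 0.126, 0.122 and 0.366). All 3 calls among numbers 4 and 5 were lost with each library centred on its median, at 0.53 for Atf6, 0.48 for Ern1 and 0.41 for Eif2ak3 (adjusted p = 0.0727, 0.0773 and 0.131). The call of Atf6 was also lost without EHBR 4 or SD 5 (adjusted p up to 0.0944), and that of Eif2ak3 without any 1 of the 4 livers of that set (up to 0.0863), while Ern1 kept it (up to 0.0499).

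Xbp1, whose message IRE1 splices, measured 165, 131, 130, 134 and 150 TPM in EHBR livers, against 270, 163, 376, 126 and 124 TPM in SD livers. SD 1 and SD 3 stood above all other livers, and the other 8 lay between 124 and 165 TPM. The difference was -0.44 (SE 0.28, adjusted p = 0.384), and -0.85 among numbers 1 to 3 (adjusted p = 0.073). Levels summed over a gene do not show how much of the message was spliced. Atf4 measured 104, 82.6, 71.9, 130 and 155 TPM in EHBR livers and 129, 74.2, 101, 125 and 100 TPM in SD livers. Its ranges overlapped widely, and the difference of 0.01 (SE 0.22, adjusted p = 0.988) was -0.16 with each library centred on its median. Ddit3, the factor CHOP that acts late in ER stress, measured 13.4, 14.5, 10.4, 13.8 and 13.8 TPM in EHBR livers and 13.4, 12.3, 9.82, 9.69 and 8.7 TPM in SD livers. It was low in both strains, with 76 to 130 reads per library, and the difference was 0.27 (SE 0.14, adjusted p = 0.288).

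**Figure D3:**
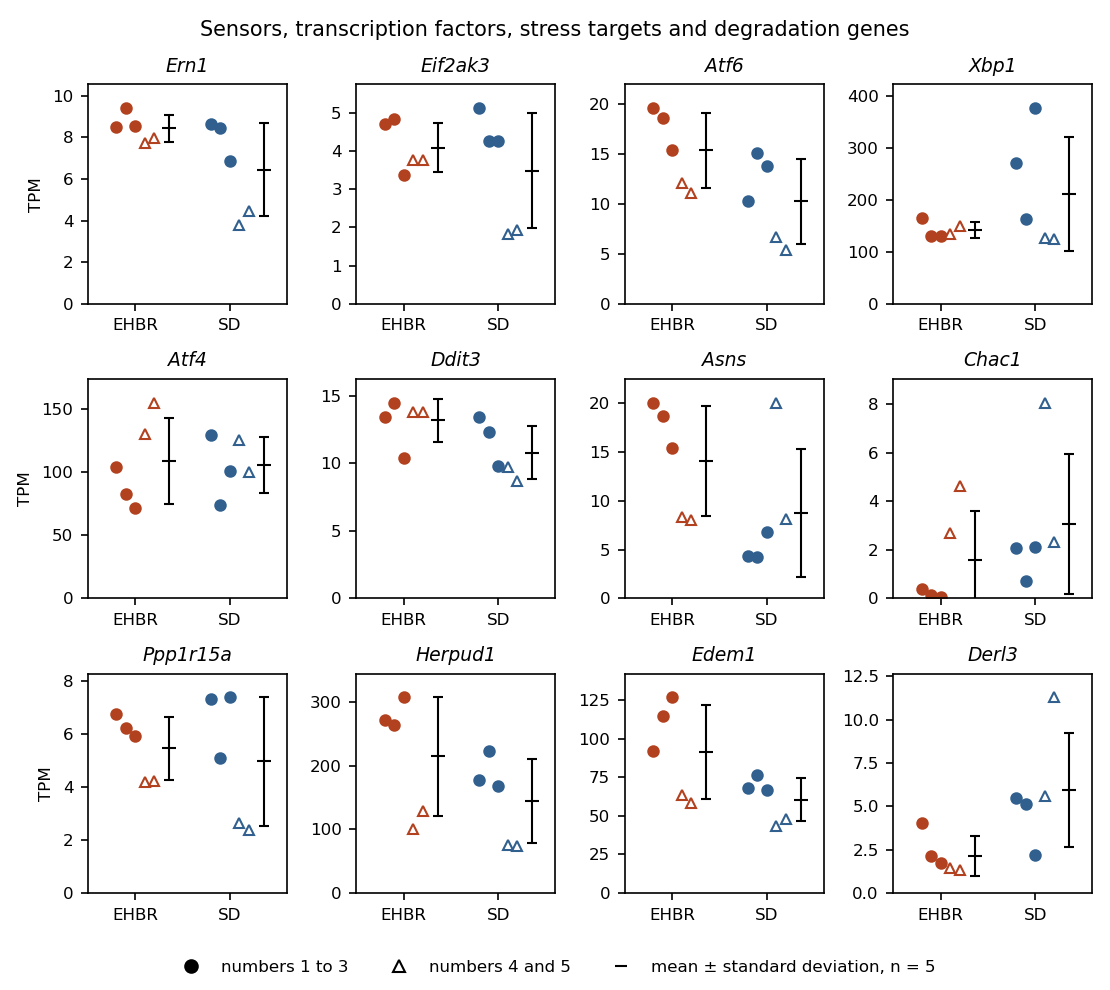
TPM of sensors, transcription factors, stress targets and degradation genes in each liver, EHBR on the left and SD on the right, with filled circles for numbers 1 to 3, open triangles for numbers 4 and 5, and the mean with its standard deviation (n = 5) beside the points; the bar of Chac1 in EHBR is cut at 0. SD 4 and SD 5 are the lowest livers in Ern1 and Eif2ak3, and Asns is high in EHBR 1 to 3, at 15.4 to 20.1 TPM, and in SD 4, at 20.1 TPM.

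Asns, asparagine synthetase and a target of ATF4, had the highest difference among the 4 stress targets at numbers 1 to 3 and a difference of the other sign at numbers 4 and 5, where it did not pass. It measured 20.1, 18.7, 15.4, 8.34 and 8.06 TPM in EHBR livers, against 4.34, 4.22, 6.84, 20.1 and 8.18 TPM in SD livers. At numbers 1 to 3 the EHBR livers all lay above the SD livers, while EHBR 4 and EHBR 5 lay close to SD 5, and SD 4 was as high as EHBR 1. The log2 difference was 1.66 among numbers 1 to 3 (SE 0.28, adjusted p = 0.00826, limma), -0.60 among numbers 4 and 5 (SE 0.34, adjusted p = 0.22) and 0.75 over all livers (SE 0.39, adjusted p = 0.289). The call among numbers 1 to 3 held without each liver in turn, with adjusted p up to 0.0403. The difference between the sets, -2.25 (SE 0.44), just missed the threshold (adjusted p = 0.0751). Of all tested genes 0.271% passed that test, and 0 of the 34 did. An unadjusted p under 0.05 was found for 7 of the 34 (20.6%), against 20.3% of all tested genes. Asns passed it without SD 5 (-2.85, adjusted p = 0.0152) and with each library centred on its median (-2.49, adjusted p = 0.0491). Over its 20 alternatives the adjusted p was 0.0152 to 0.186.

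Ppp1r15a, which encodes the phosphatase subunit GADD34 that restores translation, measured 6.74, 6.23, 5.91, 4.18 and 4.22 TPM in EHBR livers, against 7.32, 5.09, 7.38, 2.63 and 2.36 TPM in SD livers. The strains overlapped at numbers 1 to 3 and were apart at numbers 4 and 5, with 0.57 there (SE 0.17, adjusted p = 0.0434). That call was lost with median centring (0.26, adjusted p = 0.336) and without any 1 of 7 livers (all but SD 1, 2 and 3), with adjusted p up to 0.166 without SD 5. Over all livers it was 0.20 (SE 0.28, adjusted p = 0.686). Trib3, a pseudokinase, measured 5.3 to 20 TPM in EHBR livers and 3.33 to 12.8 TPM in SD livers (0.37, SE 0.36, adjusted p = 0.573). Chac1, which breaks down glutathione, was listed at 0.395, 0.133, 0.0584, 2.69 and 4.64 TPM in EHBR livers and 2.07, 0.725, 2.12, 8.06 and 2.34 TPM in SD livers. These rest on 6, 2, 1, 48 and 65 reads in EHBR livers and 39, 10, 33, 166 and 52 reads in SD livers, and the difference of -0.77 (SE 0.53) did not pass (adjusted p = 0.423).

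Of the 8 genes of ER-associated degradation, none passed over all livers (limma; 2 had an unadjusted p under 0.05). Herpud1, which organises the ubiquitin ligase complex of the ER membrane, measured 272, 264, 308, 100 and 129 TPM in EHBR livers, against 178, 223, 168, 76 and 74.4 TPM in SD livers. Within each set of numbers every EHBR liver lay above every SD liver, and in both strains numbers 4 and 5 lay below numbers 1 to 3. The log2 difference was 0.57 among numbers 1 to 3 (SE 0.13, adjusted p = 0.0281, limma) and 0.59 among numbers 4 and 5 (SE 0.16, adjusted p = 0.0278), both higher. Over all livers it was 0.58 (SE 0.39, adjusted p = 0.413). The first call was lost without EHBR 1, 2 or 3 or SD 1 or 3 (adjusted p up to 0.107), and the second without EHBR 5, SD 4 or SD 5 (up to 0.13), and both with median centring (0.50 and 0.28, adjusted p = 0.0916 and 0.364).

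Edem1, which recognises misfolded glycoproteins, measured 91.7, 115, 127, 63.7 and 58.2 TPM in EHBR livers, against 68.2, 76.6, 66.4, 43.7 and 47.7 TPM in SD livers. It too was apart between strains within each set and lower at numbers 4 and 5 in both strains. The difference was called at numbers 1 to 3 (0.64, SE 0.12, adjusted p = 0.0138, limma) and not at numbers 4 and 5 (0.41, SE 0.15, adjusted p = 0.0722) or over all livers (0.55, SE 0.24, adjusted p = 0.21). The call among numbers 1 to 3 was lost without EHBR 2 or EHBR 3, with adjusted p of 0.064 and 0.056.

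Derl3, one of the 3 derlins that help move substrates out of the ER, measured 4.06, 2.13, 1.73, 1.41 and 1.31 TPM in EHBR livers, against 5.48, 5.11, 2.2, 5.58 and 11.3 TPM in SD livers. EHBR 1 lay above SD 3, and the strains were apart at numbers 4 and 5. It rests on 33, 17, 18, 14 and 7 reads in EHBR livers and 46, 41, 21, 74 and 120 reads in SD livers. The difference was -1.93 among numbers 4 and 5 (SE 0.41, adjusted p = 0.0143, limma), -0.52 among numbers 1 to 3 (SE 0.34, adjusted p = 0.424) and -1.08 over all livers (SE 0.32, adjusted p = 0.0817). The call among numbers 4 and 5 was lost without EHBR 4, EHBR 5 or SD 5, with adjusted p up to 0.0894, and the difference over all livers passed without SD 3 (-1.33, adjusted p = 0.02). In the summed markers of B and plasma cells, EHBR 4 held 1.65 TPM and EHBR 5 8.57 TPM, against 5.46 TPM in SD 4 and 6.37 TPM in SD 5. The part of such cells in Derl3 was not tested. The other 5 genes were Sel1l and Syvn1, partners in the Hrd1 ligase, the derlins Derl1 and Derl2, and Selenos, a selenoprotein of the retrotranslocation complex. Their differences over all livers lay between -0.16 and 0.17 and none was called in any of the 4 comparisons. With upper-quartile FPKM, Syvn1 was called lower over all livers (-0.37, adjusted p = 0.0464, limma). Sel1l had 27.1 to 39.9 TPM in EHBR livers and 19.2 to 40.4 TPM in SD livers, and Syvn1 had 23.4 to 28.6 TPM in EHBR livers and 24.2 to 35 TPM in SD livers. Derl1 had 61.8 to 73.2 TPM in EHBR livers and 60.3 to 84.9 TPM in SD livers, and Derl2 had 103 to 119 TPM in EHBR livers and 81.2 to 110 TPM in SD livers. Selenos had 20.7 to 30.4 TPM in EHBR livers and 24.3 to 32.4 TPM in SD livers. The strains overlapped in all 5.

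**Figure D4:**
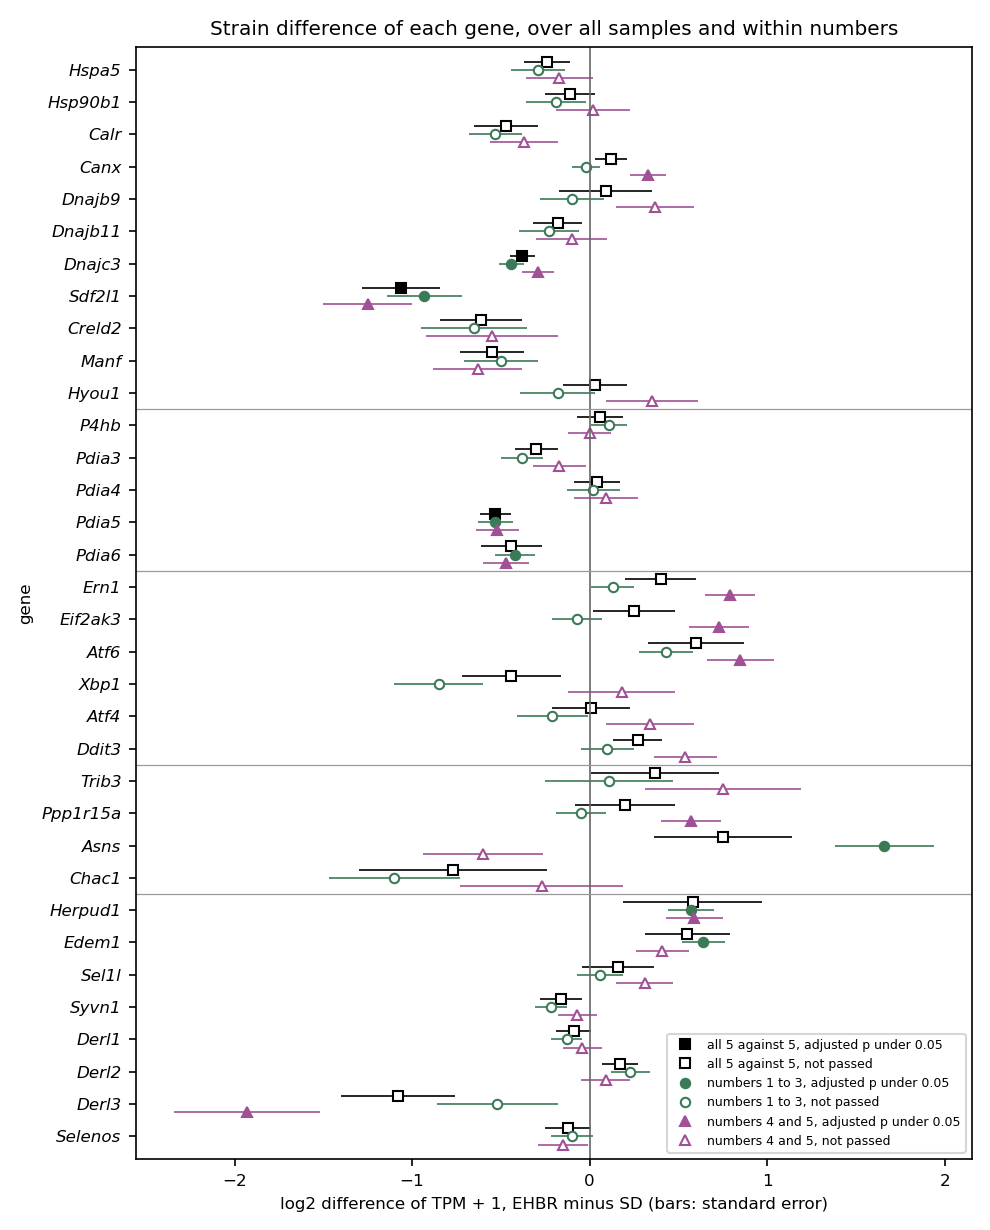
Log2 difference of TPM + 1, EHBR minus SD, for each gene over all livers (squares), among numbers 1 to 3 (circles) and among numbers 4 and 5 (triangles), with standard errors as bars and filled symbols for an adjusted p under 0.05. Dnajc3, Sdf2l1 and Pdia5 are filled in all 3 comparisons and lie left of 0, while Asns is at 1.66 among numbers 1 to 3 and at -0.60 among numbers 4 and 5.

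Taking the sets of numbers apart, 3 of the 34 genes were higher and 4 lower among numbers 1 to 3, or 8.82% and 11.8% of them, against 4.84% and 2.29% of all tested genes. Among numbers 4 and 5, 6 were higher and 5 lower, or 17.6% and 14.7%, against 19.6% and 3.38%, so the share called higher lay near that of all genes. All 6 of those higher calls were lost with each library centred on its median. With that centring the higher calls of all tested genes there went from 2169 to 402. Dnajc3, Sdf2l1, Pdia5 and Pdia6 were called lower in both sets. In a fit over all livers with a term for the numbers, 3 genes were higher, Atf6, Edem1 and Herpud1, and 7 lower, Calr, Derl3, Dnajc3, Manf, Pdia5, Pdia6 and Sdf2l1. These were 8.82% and 20.6% of the 34, against 13.6% and 3.36% of all tested genes.

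Other genes of the same compartments were read from 6 lists, also chosen with earlier results of these data known. The lists held 156 symbols, of which 152 were matched and 143 passed the filter. Over all livers 8 of the 143 were higher and 2 lower, with a median of 0.14, against 0.15 for all tested genes. These shares, 5.59% and 1.4%, lie near the 3.82% and 1.63% of all tested genes. Of 28 other ER folding factors, 1 rose (3.57%, against 3.82% of all tested genes) and 2 fell (7.14%, against 1.63%), with a median of -0.05. Fkbp2, a prolyl isomerase of the lumen, fell to 174 ± 8.55 TPM in EHBR livers, against 257 ± 40.2 TPM in SD livers (-0.55, adjusted p = 0.0121). Sdf2, the close relative of Sdf2l1, fell to 54.4 ± 4.39 TPM in EHBR livers, against 71.9 ± 4.88 TPM in SD livers (-0.40, adjusted p = 0.0234). Txndc12, a thioredoxin-like luminal protein, rose to 54.8 ± 2.78 TPM in EHBR livers, against 41.8 ± 2.99 TPM in SD livers (0.39, adjusted p = 0.02). The strains were apart in each of the 3, and with median centring Sdf2 kept its call while Fkbp2 and Txndc12 did not (adjusted p = 0.0536 and 0.429). Fkbp2 kept its call without each liver in turn. Sdf2 lost it without EHBR 2, 4 or 5 or SD 3 or 4 (adjusted p up to 0.065), and Txndc12 without EHBR 1, 2 or 4 or SD 1 (up to 0.0638).

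Of 31 other genes of the integrated stress response, 4 rose (12.9%, against 3.82% of all tested genes) and 0 fell (median 0.32). Eprs, a transfer RNA synthetase for glutamate and proline, rose to 85 ± 9.53 TPM in EHBR livers, against 47.2 ± 7.56 TPM in SD livers (0.85, SE 0.13, adjusted p = 0.00305). Slc3a2, the heavy chain of amino acid exchangers, rose to 98.5 ± 14.9 TPM in EHBR livers, against 59.9 ± 8.82 TPM in SD livers (0.71, SE 0.13, adjusted p = 0.00916). Mars1, the transfer RNA synthetase for methionine, rose to 52.7 ± 7.07 TPM in EHBR livers, against 34.6 ± 6.12 TPM in SD livers (0.60, adjusted p = 0.0293, limma). The fourth was Gars (0.36, adjusted p = 0.0471). The strains were apart in all 4, and with median centring Eprs kept its call (adjusted p = 0.00183) while the other 3 lost theirs (0.0769 to 0.53). Without each liver in turn Eprs and Slc3a2 kept theirs, Mars1 lost it without EHBR 1, 2 or 3 or SD 1 or 2 (adjusted p up to 0.0889), and Gars without any 1 of 8 livers (all but EHBR 5 and SD 4, up to 0.142). Among numbers 1 to 3, 9 of the 31 rose (29%, against 4.84% of all tested genes) and 0 fell (against 2.29%). Among numbers 4 and 5, 3 rose (9.68%, against 19.6%) and 1 fell (3.23%, against 3.38%). The difference of the list between the sets was not tested.

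Of 14 other sensors and processing factors, 2 rose (14.3%, against 3.82% of all tested genes): Rtcb, the ligase that joins the spliced Xbp1 message (67.8 ± 6.01 TPM in EHBR livers, against 46.7 ± 5.51 TPM in SD livers; 0.53, adjusted p = 0.0108), and Tmem33 (0.40, adjusted p = 0.0467). Of 19 genes of ER to Golgi transport, 1 rose (5.26%): Lman1, a cargo receptor for clotting factors (48.8 ± 4.86 TPM in EHBR livers, against 32.3 ± 5.03 TPM in SD livers; 0.59, adjusted p = 0.0147). With median centring Lman1 kept its call (adjusted p = 0.0426) and Rtcb and Tmem33 lost theirs (0.0752 and 0.292). Without each liver in turn Lman1 and Rtcb kept theirs, and Tmem33 lost it without any 1 of 9 livers (all but SD 2, adjusted p up to 0.124). None of 27 translocon and N-glycosylation genes and none of 24 other degradation genes was called over all livers by limma. An unadjusted p under 0.05 was found in 5 (18.5%) and 8 (33.3%) of them, against 20.9% of all tested genes. It was found in 8 (42.1%) of the transport genes. The most abundant of the translocon and degradation lists, Sec61b and Vcp, gave -0.33 and 0.25 (adjusted p = 0.301 and 0.193). Among numbers 4 and 5, 11 transport genes rose (57.9%, against 19.6% of all tested genes) and 0 fell. There 3 translocon genes rose (11.1%) and 5 fell (18.5%, against 3.38%), and 8 degradation genes rose (33.3%) and 2 fell (8.33%). With median centring the transport genes gave 3 higher and 2 lower there, the translocon genes 0 and 10, and the degradation genes 0 and 4. All 11083 tested genes gave 402 higher and 986 lower with that centring.

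Markers of the cell types in liver bear on these values as follows. Of 9 hepatocyte markers none was called over all livers by limma (2 had an unadjusted p under 0.05). Their sum was 160225 to 183688 TPM in EHBR livers and 139724 to 171895 TPM in SD livers. Among numbers 1 to 3, 2 were higher (22.2%, against 4.84% of all tested genes). Among numbers 4 and 5, 3 were higher (33.3%, against 19.6%). With median centring 0 were higher and 1 was lower in each set. Of 6 sinusoidal endothelial markers 3 (50%, against 3.82% of all tested genes), Stab1, Stab2 and Kdr, were higher in EHBR over all livers. Among numbers 1 to 3, 5 were higher (83.3%, against 4.84%), or 3 with median centring. Among numbers 4 and 5, 2 were higher (33.3%, against 19.6%), or 0 with median centring. The sums were 80 to 107 TPM in EHBR livers and 54.7 to 71.9 TPM in SD livers, which did not overlap. Over all livers with median centring, Stab2 kept its call (limma, adjusted p = 0.0486) and Stab1 and Kdr lost theirs (0.0738 and 0.0755). Of 7 exocrine pancreas markers, Prss1, Pnlip and Ctrb1 were at 0 in every library, while Cpb1 rose and Cela1 fell in EHBR. Of 6 cholangiocyte markers 2 passed the filter and none was called over all livers, or 1 lower with median centring. The 6 summed to 12.3 to 13.9 TPM in EHBR livers and 15.3 to 17.5 TPM in SD livers, which did not overlap. None of 6 stellate cell and fibroblast markers was called over all livers. Among numbers 4 and 5, 4 rose (66.7%, against 19.6% of all tested genes), or 0 with median centring. Of 5 erythroid markers 3 passed and none was called over all livers. The part of any of these cells in the differences above was not tested.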

How the data were processed

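Liver RNA was isolated with TRIzol, selected by its poly(A) tail and made into strand-specific libraries, per the labels' protocols. The build rn6 and the tools featureCounts 1.6.3, HISAT2 2.1.0, FastQC 0.11.7 and Trimmomatic 0.38 are named in the submitters' processing notes. For the strand setting of the counting, none is given in the sources used here. Genes that overlap on opposite strands thus have uncertain values. The authors deposited TPM, FPKM and upper-quartile FPKM for 32883 genes in 10 libraries. The deposited TPM values of Derl3, Syvn1, Ddit3 and Chac1 differ from rescaled FPKM by up to 0.51, 0.46, 0.42 and 0.26 on the log2 scale, for a reason that those sources do not state. The titles gave each sample's strain and number. They do not say how animals were bred or paired, so p-values describe the spread between these samples only. The 34 genes and the gene lists were chosen with earlier results of these data known.

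The tests used limma 3.58.1 (R 4.3.3) with the trend option on log2(TPM + 1), for the 11083 genes that reached 1 TPM in 5 or more libraries, and p-values were adjusted over all of these (Benjamini-Hochberg). The factor was strain. A second fit had 4 groups, strain by numbers 1 to 3 or 4 and 5, and gave the differences within each set and between the sets. The scripts were tested on simulated data. Read numbers were worked back from upper-quartile FPKM to whole reads, within 0.0002 reads, and make up 99.98% or more of the library totals derived from FPKM, 13.8 to 19.6 M. They were used for depth and read numbers only. Genes were given per library if they were called in any comparison or were Hspa5, Hsp90b1, Xbp1, Atf4, Atf6, Ern1, Eif2ak3, Ddit3 or Asns. From each list, up to 3 called genes with the smallest adjusted p were named, or the most abundant where none was called; Gars, and Chac1 per library, were added after their values were seen. The alternatives used FPKM or upper-quartile FPKM, a pseudocount of 0.1 or of 5, all genes or only those with a mean of 5 TPM or more, quantile normalization, centring on the median, a robust fit of the variance, the replicate block, a term for the numbers, and each library left out in turn. A fit with a trend on gene length removed from each library was chosen after seeing the data. Python 3.11.15 with pandas 2.3.3, numpy 2.4.6 and matplotlib 3.10.9 made the tables and figures. Promoters came from RefSeq, build GRCr8.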

Additional observations from a re-analysis of the deposited data

Results flagged for a closer look

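Of 68 sets of 5 livers (34 genes in each strain), 11 held a liver that stood apart from the other 4 by Dixon's criterion of 0.71, where chance gives about 1 in 20. In 8 of them that liver was EHBR 4, in each case as the highest EHBR liver. It held 536 TPM of Hspa5, 70.5 TPM of Dnajb11, 64.8 TPM of Sdf2l1, 57.8 TPM of Creld2, 313 TPM of Manf, 56.7 TPM of Hyou1, 525 TPM of Pdia3 and 280 TPM of Pdia4. These genes come from 1 library and are not independent of each other.

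Ddit3 was lowest among EHBR livers in EHBR 3, at 10.4 TPM. Among SD livers, Asns was highest in SD 4, at 20.1 TPM, and so was Chac1, at 8.06 TPM.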

How the results depend on the processing

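Dnajc3 and Pdia5 were lower over all livers under all 22 alternatives, and Sdf2l1 under all but the fit without EHBR 1 (adjusted p = 0.0504). Over all livers, the number of the 34 genes called higher (0 as reported) was 3 with the replicate block and 3 with a term for the numbers. The number called lower (3 as reported) was 7 with a term for the numbers and 2 to 5 without each liver in turn. It was 4 with quantile normalization, which added Manf (-0.60, adjusted p = 0.0442, limma). It was also 4 with upper-quartile FPKM, which added Syvn1 (-0.37, adjusted p = 0.0464, limma). The replicate block called Atf6, Edem1 and Herpud1 higher and Dnajc3, Pdia5, Pdia6 and Sdf2l1 lower. Livers of the same number deviated together at correlations of 0.07 to 0.29 across genes, which misses the rule that every pair exceed 0.1, and not every liver correlated best with its own number, so the numbers are not taken as pairs.

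Among numbers 1 to 3, 2 genes were lower with no filter (4 as reported), and without each liver 1 to 3 were higher and 1 to 4 lower. Among numbers 4 and 5, the 6 higher calls became 3 with FPKM, 3 with no filter, 1 with upper-quartile FPKM and 0 with quantile normalization, median centring or the length trend removed, and without each liver 1 to 6 were higher and 0 to 5 lower. In these fits a lone liver is assumed to vary like the other groups. Between the sets, 1 gene was lower with median centring and 0 to 1 without each liver.

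Over all tested genes, the 423 higher calls became 276 with FPKM, 209 with upper-quartile FPKM, 193 with median centring, 246 with the length trend removed, 639 with the replicate block, 1506 with a term for the numbers and 243 to 439 without each liver. The 181 lower calls became 290 with quantile normalization, 291 with the length trend removed and 372 with a term for the numbers.

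None of the differences that turned round was called over all livers. With FPKM they were -0.01 for Dnajb9, -0.07 for Hyou1, -0.03 for P4hb, -0.05 for Pdia4 and -0.08 for Atf4. With upper-quartile FPKM they were -0.05 for Canx, -0.07 for Dnajb9, -0.14 for Hyou1, -0.10 for P4hb, -0.12 for Pdia4, -0.15 for Atf4 and -0.00 for Sel1l. With median centring they were -0.05 for Canx, -0.08 for Dnajb9, -0.14 for Hyou1, -0.11 for P4hb, -0.12 for Pdia4, -0.16 for Atf4 and -0.01 for Sel1l. With quantile normalization they were -0.05 for Dnajb9, -0.08 for Hyou1 and -0.06 for Atf4. With the length trend removed they were -0.10 for Canx (and -0.08 among numbers 4 and 5, where it had been called), -0.08 for Dnajb9, -0.19 for Hyou1, -0.11 for P4hb, -0.12 for Pdia4, -0.13 for Atf4 and -0.07 for Sel1l. Without each liver, Dnajb9 ranged from -0.12 to 0.23, Hyou1 from -0.09 to 0.11, Pdia4 from -0.05 to 0.11 and Atf4 from -0.13 to 0.14. The cause of these changes was not tested. Few reads limit Chac1 (1 to 166 per library) and Derl3 (7 to 120).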
